A study of Mus musculus with 6 samples.

Results

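The samples described here are the untreated TM4 cells of a series of 6 arrays. TM4 is an established mouse line, labelled as somatic cells of the testis and as male, and it is widely used as a model of Sertoli cells. The 3 arrays of cells given no agent (0 µM, sampled at 24 h) were chosen by that label, and the 3 arrays of cells exposed to PNP were not used. All 3 untreated arrays hold total RNA of the same line under the same condition, so there is no second group and no test. Nothing in the labels tells separate cultures from repeat samples of 1 culture, and the spread given below may therefore be technical. With 1 colour per array and 3 arrays, the number of arrays limits the precision of every value.

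Sertoli cells are the somatic cells of the seminiferous tubule that surround and feed the germ cells. In the embryonic gonad the transcription factors Sry and Sox9 set their fate, and Foxl2 and Wnt4 set the fate of granulosa cells, the matching cells of the ovary. Mature Sertoli cells respond to follicle-stimulating hormone through the receptor Fshr and close the blood-testis barrier with junction proteins such as Cldn11 and Ocln. Lines kept in culture often lose part of such a programme.

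A value below is the log2 processed signal of a probe minus the 75th percentile of its array, so that 0 is that percentile, and each step of 1 is a doubling of brightness. A gene took its brightest probe, and it is called detected where at least 1 of its probes was well above background on all 3 arrays. It is called not detected where none of its probes was on any array, and partly detected otherwise. Among 23462 named genes, 12914 were detected (55%), 2233 partly and 8315 not. Among the 20100 protein-coding genes the detected share was 60.7%, against 18.6% of 3036 long non-coding RNA genes. Protein-coding genes of the X chromosome were detected in 46.2% of 796 cases, a lower share than on any autosome, where it ran from 52.8% on chromosome 7 to 68.5% on chromosome 15. For genes that were not well above background no level is given. In a bulk sample a dim gene in every cell and a brighter gene in few cells cannot be told apart.

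**Figure D1:**
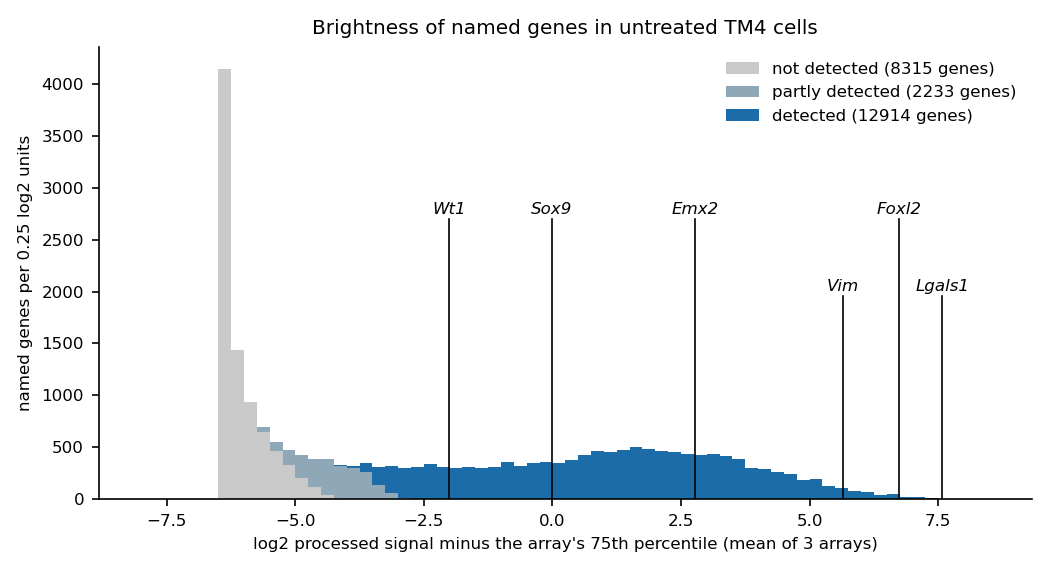
Mean log2 processed signal minus the array's 75th percentile (horizontal axis) of the 23462 named genes, stacked by detection class, with the number of genes per bin on the vertical axis. Lines mark 6 genes: Lgals1, Foxl2 and Vim lie in the upper tail, Emx2 lies above 0, and Sox9 and Wt1 lie near the middle and in the lower part of the detected genes.

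Ranks compare the brightness of different probes and are only a rough order of transcript abundance. Where a gene had more than 1 probe well above background on all 3 arrays, which was so for 4916 genes, the median gap between its brightest and dimmest such probe was 1.68. By comparison, the median standard deviation of a detected gene over the 3 arrays was 0.26. In 983 genes 1 probe was detected while another was undetected on every array, with a median gap of 4.68. Where a gene printed below with its level was detected by 1 of several probes, that is said. The gene lists used below were written with earlier results of these data known, so their shares are descriptions only.

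The 5 markers given for the line split into both classes. Lgals1, which encodes the secreted lectin galectin-1, was at 7.70, 7.85 and 7.20 on replicates 1 to 3 and ranked 5 among all named genes. Sox9, the transcription factor that sets and keeps Sertoli cell identity, was at 0.12, 0.09 and -0.24 (mean -0.01 ± 0.20, SD, n = 3), brighter than 63.6% of named genes. Wt1, a zinc finger factor needed by the gonadal ridge and by Sertoli cells, was at -1.99, -2.25 and -1.78 (mean -2.01 ± 0.23, SD, n = 3), brighter than 52.5%. Amh, the hormone by which fetal Sertoli cells remove the Müllerian duct, was not well above background on any of the arrays. Neither was Cldn11, the claudin of the blood-testis barrier. Thus 3 of the 5 were detected, over a wide span of brightness.

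In the wider list of 43 Sertoli cell genes, 27 were detected, 5 partly and 11 not, a share of 62.8% against 55% of all named genes and 60.7% of protein-coding genes. Its median was -2.07, beside -2.46 over all named genes and -1.41 over protein-coding genes, these medians being taken over every gene whether detected or not. The 11 fate and lineage transcription factors held no gene that was absent from all arrays, with 8 detected. Nr5a1, the steroidogenic factor that also drives gonad formation, was at 0.87, 0.68 and 0.75. Gata4, a zinc finger factor of gonadal somatic cells, was at 0.93, 0.76 and 0.35. Both lay close to the 75th percentile of the probes. Dmrt1, which keeps the male fate in the postnatal testis, was at -2.39, -1.70 and -2.33 through 1 of its 2 probes, the other being undetected. Sox8, the partner of Sox9, was well above background on 1 array, replicate 3.

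The X-linked reproductive homeobox genes gave a mixed result. Rhox8, a homeobox gene of Sertoli and granulosa cells, was at 3.42, 3.86 and 3.26 and brighter than 90% of named genes. Rhox5, the founding member of the cluster and an androgen-regulated gene of Sertoli cells, was at 0.96, 0.61 and 0.47. Together with Rhox3e, at -3.36 ± 0.41 (SD, n = 3), these were the 3 detected genes of 13 matched in the cluster, with 4 more partly detected. The detected share, 23.1%, was below the 55% of all named genes.

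Hormones, hormone receptors and secreted factors of Sertoli cells were detected in 13 of 20 cases (65%), near the 60.7% of protein-coding genes and beside 55% of all named genes. Inhba, the activin and inhibin subunit beta A, was at 2.95, 2.21 and 2.54, and Inhbb, the subunit beta B, was at 1.09, 0.37 and 1.02. Replicate 2 was the lowest of the 3 arrays for both of these genes. Inha, the alpha subunit that makes the dimer an inhibin, was at -1.68, -1.71 and -1.58. Of the factors that Sertoli cells make for germ cells, 3 were dim: Dhh, the hedgehog ligand, had a mean of -1.04 ± 0.33, Kitl, the ligand of Kit, -2.63 ± 0.17, and Gdnf, the spermatogonial stem cell factor, -3.29 ± 0.07 at 1 of 2 probes (SD, n = 3). Cxcl12, the chemokine that holds stem cells in their niche, was brighter, at 1.51, 0.35 and 1.16. Fshr, the receptor of follicle-stimulating hormone, and Shbg, which binds androgen, were not detected by any probe.

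Junction and cytoskeletal genes of the list were detected in 6 of 12 cases (50%), near the 55% of all named genes. Cdh2, the N-cadherin of Sertoli cell contacts, was at 4.45, 4.13 and 3.99, and Gja1, the gap junction protein connexin 43, was at 2.42, 1.72 and 2.14. Tjp1, the tight junction scaffold ZO-1, was at -1.29, -1.44 and 0.01, with replicate 3 above both others. The tight junction membrane proteins Ocln, Cldn3 and Cldn11 were undetected on every array. Among all 22 claudins on the array 5 were detected (22.7%), beside 55% of all named genes. Cldn12, at a mean of 2.40 ± 0.16 (SD, n = 3), was the brightest of them.

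**Figure D2:**
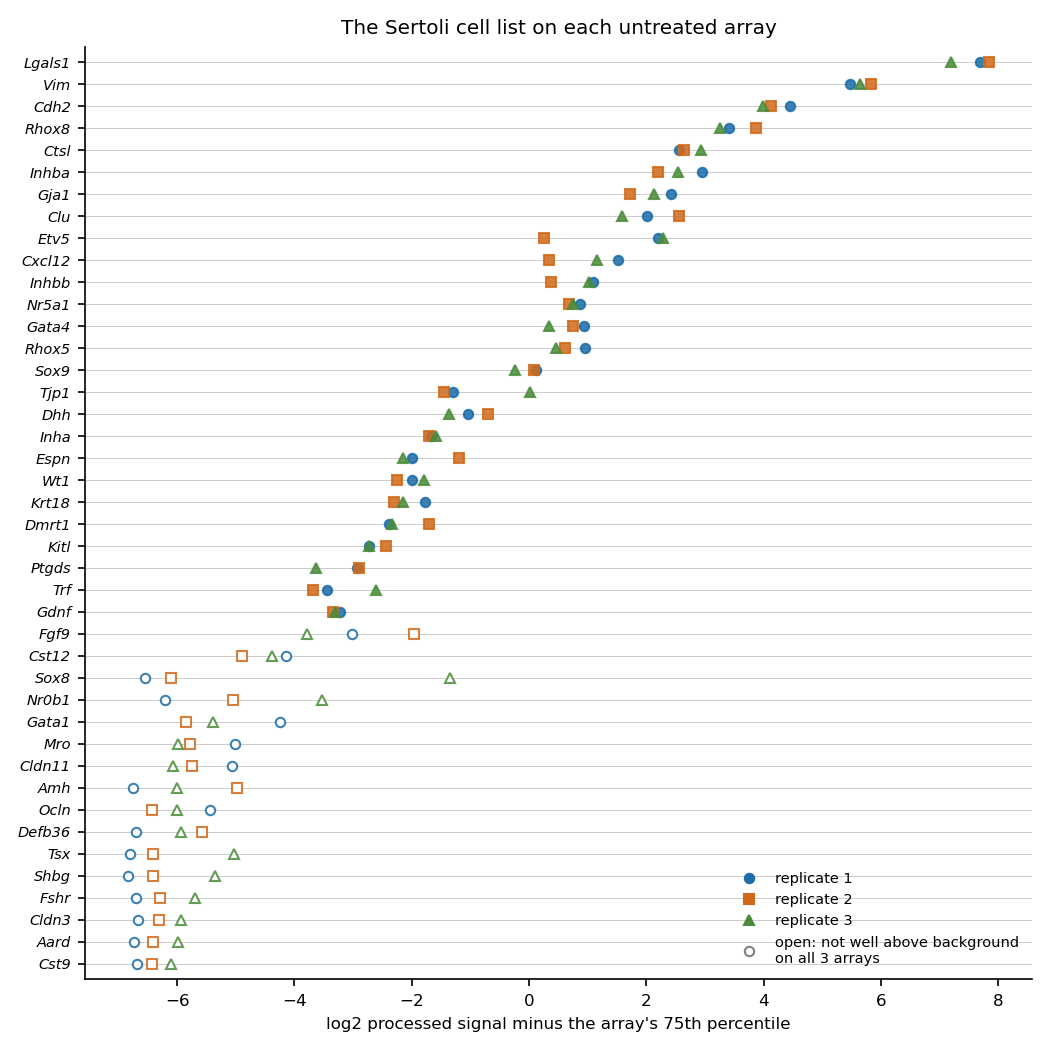
Values of 42 genes of the Sertoli cell list (rows) on each untreated array, as log2 processed signal minus the array's 75th percentile (horizontal axis). Circles, squares and triangles are replicates 1, 2 and 3; filled symbols are 26 detected genes and open symbols are the 16 genes that were not well above background on all 3 arrays, whose positions carry no order. A further detected gene of the list is not drawn.

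Genes of the ovarian side of the same fate decision were also detected. Foxl2, the forkhead factor that keeps granulosa cells from turning into Sertoli cells, was at 6.81, 6.82 and 6.57 (mean 6.73 ± 0.14, SD, n = 3) and ranked 64 of 23462. It has 1 probe on the array, so no other probe could be set beside this value. Runx1, a transcription factor of the fetal ovary, was at 2.53, 2.93 and 2.09 with all 3 probes detected. Esr2, the estrogen receptor beta of granulosa cells, had a mean of 1.59 ± 0.18 (SD, n = 3) at 1 of 2 probes. Wnt4, at -2.07 ± 0.62, and Fst, the activin-binding follistatin, at -2.72 ± 0.54, were dim. The list as a whole was detected in 5 of 12 cases (41.7%), below the 55% of all named genes. That share counts oocyte genes along with those of granulosa cells, so it is not a share of granulosa cell genes alone. Among the genes not well above background on any array were Cyp19a1, the aromatase, and the oocyte genes Gdf9, Bmp15 and Zp3.

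Genes of the early gonadal ridge, from which both cell types arise, were detected in 8 of 10 cases (80%), beside 55% of all named genes. Emx2, a homeobox gene without which gonads and kidneys fail to form, was at 2.90, 2.61 and 2.79. Osr1, an early factor of the intermediate mesoderm, was at 1.80, 1.58 and 1.83. For both genes the 3 arrays lay within 0.29 of each other. Six4 and Cbx2, which act upstream of Sry, were detected with means of -1.22 ± 0.36 and -0.42 ± 0.32 (SD, n = 3). Lhx9 was partly detected and Tcf21 was not detected.

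To show the sequence at the start of some of these genes, 120 bases before the RefSeq start site are printed for 3 genes that were detected and 3 that were not, from 5′ to 3′ in the direction of the gene (GRCm38.p6), with CpG dinucleotides in capitals.
Foxl2, chr9:98955487-98955606 (+ strand): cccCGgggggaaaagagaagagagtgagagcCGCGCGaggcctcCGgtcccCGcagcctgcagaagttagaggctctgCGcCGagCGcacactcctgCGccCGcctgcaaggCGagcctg
Vim, chr2:13574191-13574310 (+ strand): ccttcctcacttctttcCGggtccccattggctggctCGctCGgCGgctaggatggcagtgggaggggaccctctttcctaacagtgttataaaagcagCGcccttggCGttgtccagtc
Acta2, chr19:34255374-34255493 (- strand): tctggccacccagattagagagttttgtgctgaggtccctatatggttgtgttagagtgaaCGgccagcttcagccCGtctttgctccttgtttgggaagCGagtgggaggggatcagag
Cldn11, chr3:31149800-31149919 (+ strand): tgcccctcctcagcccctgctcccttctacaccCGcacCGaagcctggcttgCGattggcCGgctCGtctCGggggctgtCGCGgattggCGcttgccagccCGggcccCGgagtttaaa
Ddx4, chr13:112652311-112652430 (- strand): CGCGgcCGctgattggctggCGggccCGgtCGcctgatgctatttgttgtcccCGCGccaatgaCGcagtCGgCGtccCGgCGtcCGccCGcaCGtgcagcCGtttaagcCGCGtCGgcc
Prm1, chr16:10796824-10796943 (- strand): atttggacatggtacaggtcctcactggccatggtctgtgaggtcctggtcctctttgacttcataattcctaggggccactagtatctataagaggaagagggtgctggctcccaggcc
The detected genes differed among themselves. Foxl2 had 12 CpG in this window, Vim 6 and Acta2 3. Of the genes not detected, Cldn11 had 11, Ddx4 20 and Prm1 0. In Vim the word TATAAA began 32 bases before the start, and it was in none of the other 5 windows on this strand.

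Across the table, 9837 of the 12210 detected protein-coding genes (80.6%) had a promoter of 300 bases, 250 before and 50 from the start. A promoter was counted as CpG-rich where its GC content was over 50% and its ratio of observed to expected CpG was over 0.6. That held for 66.7% of the detected genes with a promoter, 48.5% of all 16096 protein-coding genes with one, and 33.9% of all 27025 genes in the table. The word TATAAA, on either strand, was in 7.86% of the detected genes' promoters, against 12.8% of those of all protein-coding genes and 14.2% of all genes. The GC box word GGGCGG, on either strand, was in 63%, 49.1% and 35.9%. For the genes not detected the same count is void, because the share with a promoter, 79.9%, was under 80%. A word in these letters is a description of the window and does not show a binding site.

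In the list of 32 genes of mesenchymal cells and fibroblasts, 28 were detected (87.5%), with a median of 3.01. Over all protein-coding genes the share was 60.7% and the median -1.41. Because the list was written with earlier results of these data known, its share is no independent evidence of cell type. Col1a2, the alpha 2 chain of type I collagen, ranked 10 and was at 7.39 and 7.43 on replicates 1 and 2, its spot on replicate 3 being an outlier that was left out. Its partner chain Col1a1 was at 6.38, 5.76 and 5.82. Fn1, fibronectin, was at 6.16, 6.41 and 5.94, and Col3a1, type III collagen, had a mean of 5.68 ± 0.11 (SD, n = 3). S100a4, a calcium-binding protein known from fibroblasts, was at 6.34, 6.25 and 5.95. Vim, the intermediate filament vimentin of both Sertoli and mesenchymal cells, was at 5.48, 5.82 and 5.65.

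All 7 transcription factors of that list were detected. Prrx1, a homeobox gene of limb and connective tissue mesenchyme, had a mean of 3.36 ± 0.14, and Twist2, a helix-loop-helix factor of dermis and mesoderm, 3.15 ± 0.19 (SD, n = 3). Snai2 and Twist1 were lower, at 1.98 ± 0.83 and 1.16 ± 0.52, and Zeb2, Zeb1 and Snai1 followed at 0.74, -1.15 and -2.27. Only Nt5e and Lum of the list were undetected on every array.

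Contractile genes shared with peritubular myoid and smooth muscle cells were detected in 11 of 13 cases (84.6%), beside 55% of all named genes. Acta2, smooth muscle alpha actin, was at 6.70 and 6.65 on replicates 1 and 2, with an outlier spot on replicate 3, and a second probe gave 6.77 and 5.97 on replicates 2 and 3. The remaining probe of the gene was detected at a mean of 1.71, which shows how far probes of 1 gene can differ. Tagln, the actin-binding transgelin, was at 6.79, 6.75 and 6.02. Tpm2, beta tropomyosin, had a mean of 5.27 ± 0.34, and Cnn1, the smooth muscle calponin, 3.44 ± 0.17 (SD, n = 3). Myh11, the smooth muscle myosin heavy chain that marks the mature state, was dim, at -3.46 ± 0.20 and at 1 of 3 probes, and Lmod1 and Synpo2 were not detected. Des, the muscle filament desmin, was at -0.26 ± 0.43.

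Epithelial genes were detected in 7 of 19 cases (36.8%), beside 55% of all named genes. By the positive and significant flag the count was 14 of 19, beside 15593 of all 23462 named genes. The share was thus not lower by that flag. The keratins accounted for 5 of the 7 detected genes. Krt7 was the brightest, at 1.41, 1.60 and 1.39, while Krt8 and Krt18, the simple epithelial pair, were at -1.52 ± 0.62 and -2.07 ± 0.28 (SD, n = 3). The adhesion molecules Cdh1, which is E-cadherin, and Epcam were not well above background on any of the arrays, and none of the 5 epithelial transcription and splicing factors was detected on all arrays.

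Leydig cells, the androgen-making cells of the testis, were represented by 5 detected genes of 16 (31.25%), below the 55% of all named genes. Among 11 steroidogenic genes matched, 2 were detected, and 9 were not detected by any probe. The latter included Star, which carries cholesterol into the mitochondrion, the side-chain cleavage enzyme Cyp11a1, Cyp17a1, Hsd3b1, Hsd17b3 and the receptor Lhcgr. Akr1c14, a hydroxysteroid dehydrogenase, was at 1.02, 0.79 and 1.20. Of 5 progenitor genes 3 were detected: Nes, the filament nestin, at 4.20, 3.22 and 3.97, Nr2f2, the orphan receptor COUP-TFII, at 1.40, 1.62 and 1.58, and Pdgfra, the platelet-derived growth factor receptor alpha, at 0.88, 0.45 and 1.27.

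Germ cell genes were detected in 6 of 43 cases (14%), against 55% of all named genes, with 8 more partly detected. The count was 11 without replicate 3, 14 with 1 array sufficing and 17 by the less strict flag for a positive and significant signal. By stage this was 1 of 13 genes of spermatogonia, 2 of 13 of meiosis and 3 of 17 of spermatids. All 6 were dim: Spo11, which makes the meiotic breaks, had a mean of -2.08, Tnp2 -2.16, Dnd1 -2.34, Catsper1 -3.18, Sycp3 -3.22 and Prm2 -3.34. The germ cell helicase Ddx4, the RNA-binding protein Dazl, the receptor Kit, the meiotic trigger Stra8 and the protamine Prm1 were undetected on every array.

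Markers of other lineages were detected at shares below 55% in each case. Endothelial genes stood at 1 of 14 (2 without replicate 3), the 1 being Eng, the TGF-beta co-receptor endoglin, at 0.44, 0.77 and 0.13, while Pecam1, Cdh5, Kdr and Tek were not detected. Hepatocyte genes stood at 1 of 10 and lymphocyte genes at 2 of 10. Macrophage genes stood at 6 of 16. Csf1r, the receptor of colony-stimulating factor 1, was at 1.54, 1.75 and 1.56 with both probes detected, and Cd14, the lipopolysaccharide co-receptor, was at 2.40, 2.04 and 2.05. Itgam, an integrin of myeloid cells, was detected at 3.01, 3.28 and 3.30 by 1 probe, while its other probe was on no array. The general leukocyte marker Ptprc, the macrophage marker Adgre1, Tyrobp and C1qa were undetected on every array.

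Neuronal genes were detected in 5 of 15 cases, glial genes in 2 of 8 and striated muscle genes in 6 of 12. Snap25, a synaptic fusion protein, was at 2.27, 2.49 and 2.29 by 1 of 2 probes, and Tubb3, a neuronal tubulin, was at 1.71, 0.84 and 1.62. Among pluripotency genes, Nanog stood at 6.29, 6.49 and 5.96 by 1 probe, and its other probe was on no array. Pou5f1 had a mean of -2.16 ± 0.46 (SD, n = 3), and Sox2, Esrrb and Zfp42 were not detected. Of the 153 detected list genes with more than 1 probe, 42 were detected by a single probe, and the reason for such gaps between probes was not tested.

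**Figure D3:**
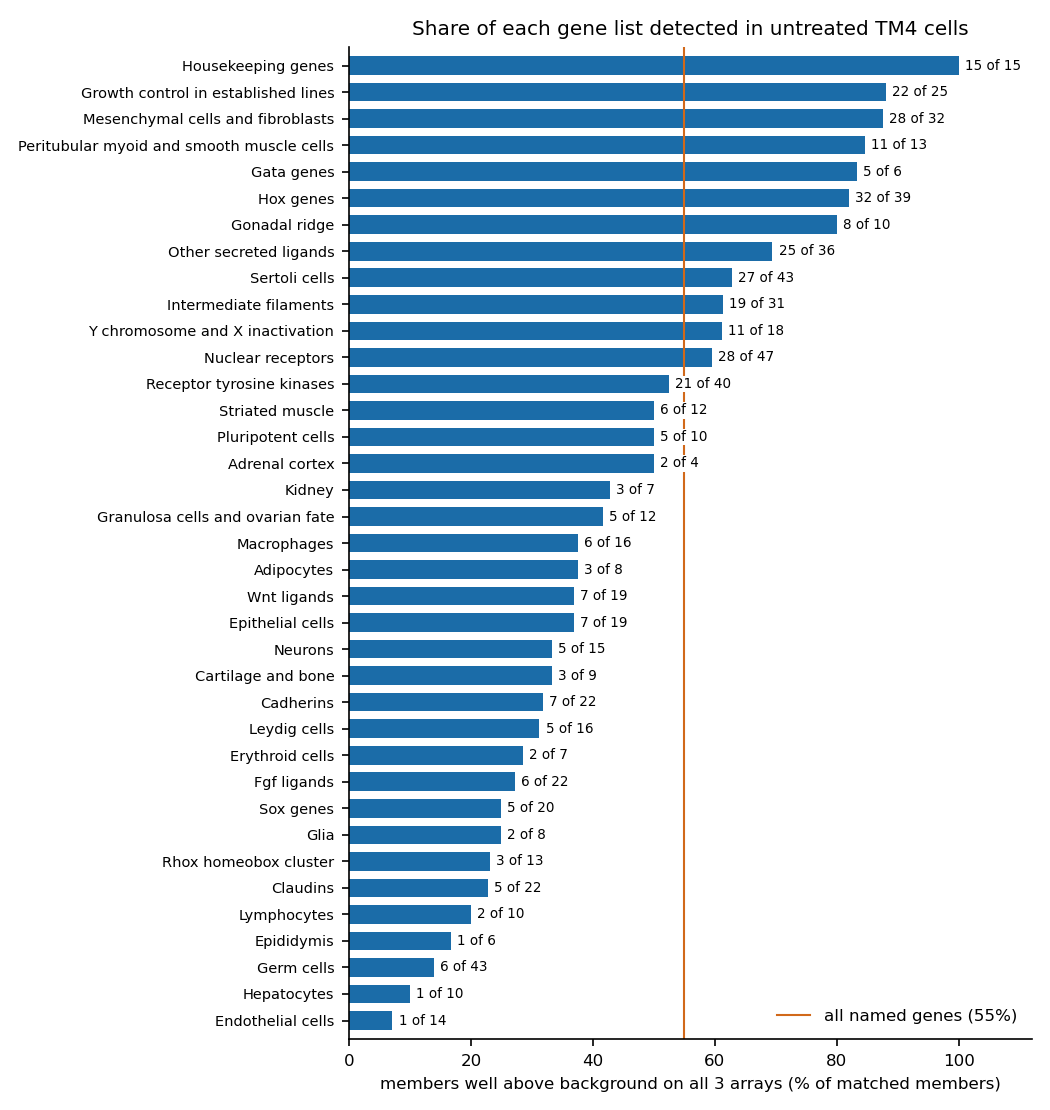
Share of matched members that were well above background on all 3 untreated arrays (horizontal axis, percent) for each of the 37 gene lists, with the counts beside the bars. The vertical line is the 55% of all named genes; 12 lists lie above it and 25 below, with the mesenchymal, peritubular myoid and Hox lists among those above and the germ cell, hepatocyte and endothelial lists at the bottom.

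Chromosome Y genes were detected in 4 of 8 cases (50%), beside 55% of all named genes, and the 4 were dim. Sry was at -2.39, -1.87 and -2.60, the histone demethylase genes Kdm5d at -2.49, -2.43 and -1.59 and Uty at -2.37, -2.18 and -2.57, and the translation factor gene Eif2s3y at -3.44, -3.54 and -2.62. These 4 were the detected genes among 8 matched, and the other Y genes of the list, Ddx3y, Usp9y, Zfy1 and Zfy2, were partly or not detected. Kdm5d was detected by 1 of its 3 probes and Eif2s3y by 1 of 2. Of 7 X-linked partners 6 were detected (85.7%), beside 55% of all named genes, and 1 partly. Eif2s3x, at 3.02 ± 0.13, Kdm5c, at 1.79 ± 0.23, and Ddx3x, at 4.07 ± 0.46 (SD, n = 3), were detected by every probe. The partners Zfx and Kdm6a were detected too but were dim, and Kdm6a had a lower mean than any of the 4 detected Y genes. Xist, the RNA that silences an X chromosome in female cells, was not well above background on any of the arrays.

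Hox genes, which mark position along the body axis, were detected in 32 of 39 cases (82.1%), beside 55% of all named genes. They were spread over all 4 clusters: 9 of 11 in Hoxa, 9 of 10 in Hoxb, 8 of 9 in Hoxc and 6 of 9 in Hoxd. All 10 genes of paralogue groups 9 to 11 were detected, against 14 of 15 in groups 4 to 8, 6 of 8 in groups 1 to 3 and 2 of 6 in groups 12 and 13. Hoxc9 was at 3.43, 3.43 and 3.42, among the 10 detected genes with the smallest range over the arrays. Hoxd8 was at 3.41, 3.37 and 3.41, Hoxa9 at 3.11, 3.89 and 2.86, Hoxb9 at 2.86, 2.77 and 2.75 and Hoxc6 at 2.87, 2.85 and 2.58. Hoxa9 had overlapping values with Hoxc9 and Hoxd8, so the order of these 3 is not settled. The 4 genes not detected lie at the ends of the clusters: Hoxb1 and Hoxd1 at the first, Hoxa13 and Hoxd13 at the last. Hoxb13, in contrast, was at 1.13, 0.94 and 1.03.

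**Figure D4:**
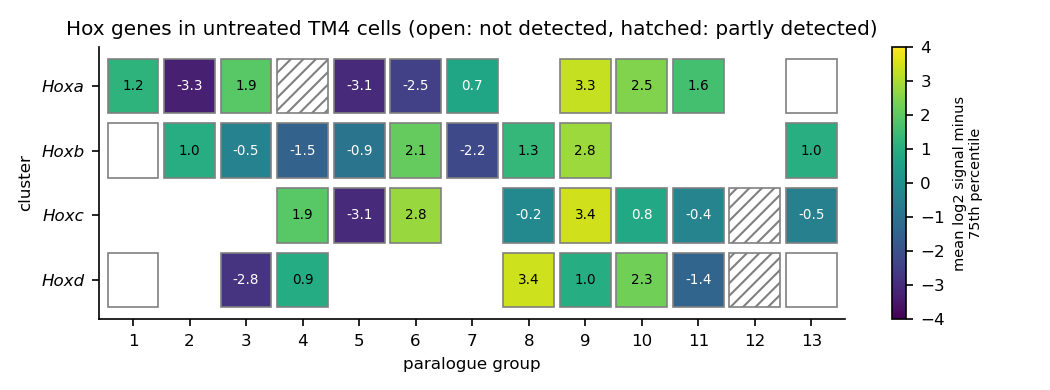
Mean log2 processed signal minus the 75th percentile for each of 39 Hox genes, by cluster (rows) and paralogue group (columns). Coloured cells are the 32 detected genes with their value, open cells the 4 not detected and hatched cells the 3 partly detected; the cells of groups 9 to 11 are all filled.

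Among other transcription factor families, 5 of 6 Gata genes were detected (83.3%), beside 55% of all named genes. Gata5, known from endoderm and heart, was at 4.28, 4.54 and 4.28, and Gata3, known from lymphocytes and kidney ducts, was at 2.66, 2.76 and 2.22. Of 20 Sox genes 5 were detected (25%): Sox4, Sox9, Sox12, Sry and, at 5.25 ± 0.32 (SD, n = 3) by 1 of 3 probes, Sox5. Nuclear receptors were detected in 28 of 47 cases (59.6%), near the 55% of all named genes and the 60.7% of protein-coding genes. Of the steroid receptors, Nr3c1, the glucocorticoid receptor, was at 3.35, 3.27 and 3.32, and Esr1, the estrogen receptor alpha, at 3.11, 3.05 and 3.16 through the brightest of 6 probes. Pgr, the progesterone receptor, was dim, at -2.46 ± 0.22 by 1 of 2 probes (SD, n = 3). Nr3c2, the mineralocorticoid receptor, was not detected by any probe.

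Genes of receptors and ligands of growth factor signalling were unevenly detected. Receptor tyrosine kinases were detected in 21 of 40 cases (52.5%), near the 55% of all named genes. Axl, a receptor of Gas6 that Sertoli cells use in clearing dying germ cells, was at 6.80, 6.70 and 6.23 and was the brightest of the family. Its relatives Tyro3 and Mertk followed at means of 1.60 ± 0.41 and -1.32 ± 0.09 (SD, n = 3). Fgfr1 was at 3.99, 4.03 and 4.24, and Igf1r and Egfr had means of 3.34 and 3.05. Kit, Ret and Kdr were not detected. Wnt ligands were detected in 7 of 19 cases (36.8%), led by Wnt7b at 2.91, 2.87 and 2.57. Fgf ligands were detected in 6 of 22 (27.3%), led by Fgf23, a hormone of phosphate balance known from bone, at 2.48, 2.77 and 2.90. Fgf9, the male-determining ligand of the fetal gonad, was partly detected.

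Genes of growth control were detected in 22 of 25 cases (88%), beside 55% of all named genes. Cdk4, the kinase of the first growth phase, was at 5.58, 5.52 and 5.53, and its inhibitor gene Cdkn2a was at 5.60, 5.68 and 5.01. A second probe of Cdkn2a had a mean of 1.93, and the symbol covers both the p16 and the p19Arf transcript. Myc had a mean of 4.14 ± 0.39, Trp53 3.91 ± 0.13 and Mki67, a marker of cycling cells, 1.69 ± 0.23 (SD, n = 3). Mdm2 and Cdkn1a, both known p53 targets, had means of 1.41 and 1.34. Cdkn1c, an inhibitor that marks resting cells, was not detected.

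The 40 named genes at the top included many that all growing cells use. Cytosolic ribosomal protein genes made up 12 of them, with Rps16 ranked 4. Actb, Actg1, Tuba1c and Tuba1b of the cytoskeleton, Aldoa and Gapdh of glycolysis and the elongation factor gene Eef2 were also there. Besides Lgals1 and Col1a2, few genes of restricted expression reached this level. Slc10a1, the bile acid transporter of hepatocytes, was at 7.17, 7.47 and 6.74 by 1 probe, with its other probe on no array. Sp110, a nuclear body protein, was at 7.27, 7.53 and 6.99 by the brightest of 3 probes, the others having means of -1.26 and -2.36. In 11 of the 40 genes the brightest probe lacked a value on 1 or more arrays because the spot was an outlier there, and 6 of these, Rpl14, Actb, Actg1, Rpsa, Gapdh and Eef2, rested on replicate 2 alone.

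The arrays resembled each other closely. Over detected genes the correlation between arrays, a description over genes that share the probe design, was 0.983 for replicates 1 and 2, 0.988 for 1 and 3 and 0.972 for 2 and 3. The number of detected genes that differed over 2-fold was 517, 259 and 1149 for these pairs. The median difference of replicate 3 was -0.18 from replicate 1 and -0.13 from replicate 2. Every gene among the 40 brightest with a value on replicate 3 was lowest there, as with Rps15 at 7.50, 7.72 and 6.77. The spread of bright genes therefore includes this shift of the array. Replicates 1 and 2 were on 1 slide and replicate 3 on another, while replicates 1 and 3 shared the position on their slides that replicate 2 did not. Probes well above background made up 55%, 51.9% and 48% on replicates 1 to 3. Replicate 3 thus had the fewest, and no probe was saturated on any array.

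The genes that varied most were often lowest in replicate 2, in 8 of the 10 with the largest range. Fosl1, an AP-1 transcription factor, was at 0.79, -1.91 and 1.28, and Egr2, an immediate early zinc finger gene, at -0.72, -3.91 and -1.47. Has2, the hyaluronan synthase, was at -0.57, -2.56 and 0.11, and Spry2, a feedback inhibitor of receptor tyrosine kinase signalling, at 0.22, -2.11 and 0.49 by 1 of 2 probes. Tram2, a protein of collagen synthesis, went the other way, at 0.05, 2.66 and -0.18. Replicate 2 was less one-sided over the 1401 detected genes with a range over 2-fold, being the lowest in 743 and the highest in 511. Where it was the array farthest from the median of such a gene, it lay above in 400 and below in 480. For comparison, replicate 2 was the lowest of the 3 arrays in 34.3% of the 12879 detected genes with 3 values and replicate 3 in 51.5%. Med16, a mediator subunit, had the smallest range, at 5.64, 5.64 and 5.63.

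**Figure D5:**
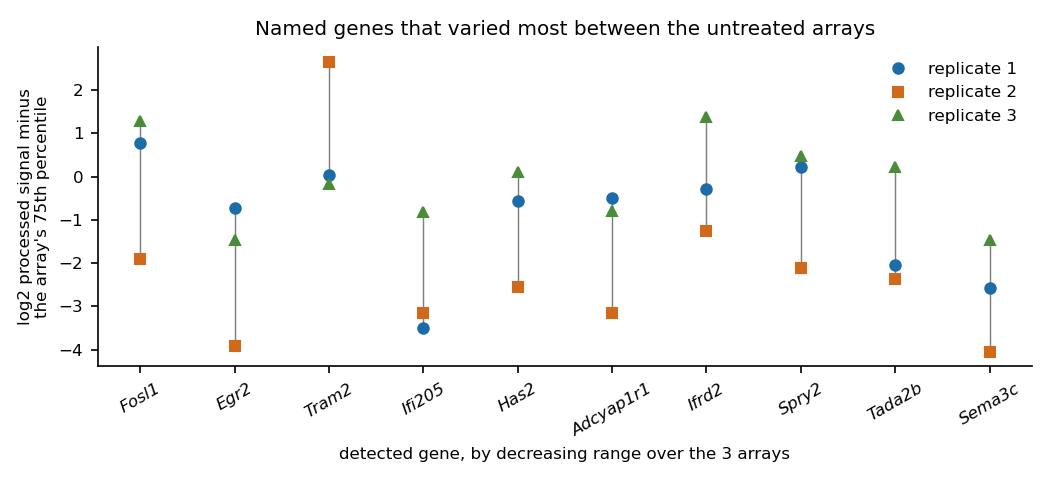
Values on each untreated array (vertical axis, log2 processed signal minus the array's 75th percentile) of the 10 detected genes with the largest range, in order of that range. Replicate 2 (squares) is the lowest in 8 of the 10 and the highest in Tram2.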

How the data were processed

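Per the labels, TRIzol-extracted total RNA was linearly amplified and carries Cy3. The deposited intensity values are Agilent Feature Extraction's processed signals. The software version is 11.5.1.1 in the file headers but 10.7 in the submitters' processing notes. The authors' log2 values of the same arrays correlated with these signals at 0.998 or more and served as an alternative, their normalization being read from the values. Outlier spots were dropped, the log2 signals of a probe's spots were averaged, and the 75th percentile of the array was taken off. Probe accessions were matched to RefSeq symbols (GRCm38.p6, names only, since the file headers name mm9): 33767 of 56605 probes had one. Genes took their brightest probe. Of 641 genes written in 37 lists, 634 matched a named gene. Members and lists were chosen with earlier results of these data known. The genes named are list members, the 40 brightest named genes and the 10 with the largest and the smallest range. Some genes are not reported here. No test was run. Promoter sequences are those of RefSeq (GRCm38.p6). Python 3.11.15 and limma 3.58.1 (normexp alternative) in R 4.3.3 were used, and steps were tested on simulated data.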

Additional observations from a re-analysis of the deposited data

How the results depend on the processing

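The count of detected named genes, 12914, lay between 12933 and 13779 with a replicate left out, and was 15147 with 1 array sufficing, 11337 with every probe required, 12913 by the brightest probe alone and 15593 by the positive and significant flag. Detected list genes, 315, lay between 315 and 347 with a replicate left out, and between 263 and 417 under the other rules. With the median of a gene's probes in place of the brightest, 21 of the 40 brightest genes were among the 40 brightest again. Under the other settings, quantile normalization, median centring, normexp with an offset of 50, the authors' values, outlier spots kept and another reference for the percentile, it was 38 to 40, and with a replicate left out 35 to 39. Gene percentiles moved most with the median of probes: Esr1 from 87.1 to 69.3 and Hoxd8 from 89.1 to 77.8. Counts of single lists moved by over 1.5 times in 42 of 259 cases, over 20 of 37 lists, 32 upward and 10 downward. The median standard deviation was 0.26, and 0.24 and 0.22 after quantile and normexp. With 1 array sufficing, 61.6% of detected genes' promoters were CpG-rich. No paired analysis was possible because 1 group was described and no test was run. Signal over background limits the dim genes: the lowest values called well above background were -4.57, -4.23 and -3.86 on replicates 1 to 3.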

Other observations

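Genes known to respond to the ERK kinase pathway were written down as a list of 24 after Fosl1, Egr2, Spry2 and Etv5 had been seen to be low in replicate 2, so the list supports nothing by itself and was not tested. In the untreated cells 22 of the 24 were detected, beside 55% of all named genes and 60.7% of protein-coding genes. Egr3 was partly detected and Spry4 was not detected. Replicate 2 was the lowest array for 18 of the 22, beside 34.3% of the 12879 detected genes with 3 values. In 8 of the 22 it was over 2-fold below both other arrays, beside 1.72% of those 12879 genes. These 8 include Fosl1, Egr2, Spry2 and Etv5, which prompted the list, so the count is no measure of an excess. Dusp6, the phosphatase that turns ERK off, was at 3.90, 2.32 and 3.81 on replicates 1 to 3. Egr1, an immediate early factor, was at 3.11, 1.15 and 3.11, and Etv5, a factor of the FGF response and of the Sertoli cell niche, at 2.20, 0.26 and 2.29. Spry1, a feedback inhibitor, was at 0.35, -1.64 and -0.01. Jun, at 3.23, 3.44 and 2.89, Fosb, at -0.26, 0.22 and -0.39 by 1 of 2 probes, and Dusp4, at 2.12, 2.29 and 1.79, were highest in replicate 2. Replicate 2 also held the other slide position, whose part in this was not tested.

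Among 36 secreted ligands outside the Wnt and Fgf families 25 were detected (69.4%), beside 60.7% of all protein-coding genes, 7 of 19 Wnt and 6 of 22 Fgf ligands. Ccn2 and Ccn1, matricellular proteins of the YAP and TGF-beta responses, had means of 5.35 ± 0.15 and 4.22 ± 0.10 (SD, n = 3). Csf1, the ligand of the receptor Csf1r, whose transcript was also detected, had a mean of 3.54 ± 0.24, and Vegfa 3.45 ± 0.28 with all 4 probes detected. Bmp4 had a mean of 3.36 ± 0.32 and Pdgfa 3.12 ± 0.25. Igf2, Shh, Bmp2 and Bmp7 were undetected on every array.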
